A study of Mus musculus with 2 samples.

Results

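Pi16 or Car3 fibroblasts were those cells of 2 single-cell RNA sequencing libraries of mouse peritoneal tumors that carried collagen transcripts together with transcripts of Pi16 or Car3. They numbered 140 of the 15156 cells kept, 61 of 8770 in the control IgG library and 79 of 6386 in the Activin A antibody library. A cell was a member if it held at least 20 UMIs (unique molecular identifiers, each counted as 1 captured transcript) of Col1a1, Col1a2, Col3a1 and Dcn together and at least 2 UMIs of Pi16 and Car3 together. It could hold at most 1 UMI of the leukocyte gene Ptprc, at most 2 of the contractile genes Acta2 and Tagln, at most 1 of the mesothelial genes Msln, Upk3b and Lrrn4, at most 1 of the endothelial genes Pecam1 and Cdh5, and fewer than 10 of Dlk1, Hmga2 and Cdkn2a, which mark the cancer cells. Levels of these genes follow from this choice and are given as a description.

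All mice were female C57BL/6 animals aged 6 to 8 weeks. In each of them the peritoneal wall had been abraded and syngeneic ovarian cancer cells (p53-/-, myc, Hras) had been placed in the abdominal cavity, so both groups share the wound, the tumor cells and a host without engineered alleles. From the next day the mice received either control IgG or an antibody that neutralizes Activin A. The submitters' design text gives 7 control and 8 antibody mice and 10 days of treatment, whereas the study's text gives another length of treatment and another number of mice for the single-cell experiment, so neither is settled for these libraries. Tumor tissue was pooled over the mice of a group and made into 1 library, with no sort for a cell type. Each group therefore has 1 library and no biological replicate. No test between groups was possible, the antibody cannot be told apart from any other difference between the 2 libraries, and every interval below is a 95% interval that covers counting error only.

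Fibroblasts that express Pi16 (peptidase inhibitor 16) with Dpp4, Cd34 and Ly6a are found around vessels and in loose connective tissue of many organs and are regarded as a reserve from which more specialized fibroblasts arise. Activin A, a dimer of 2 inhibin βA subunits encoded by Inhba, signals through activin receptors and SMAD2 and SMAD3 and is held back by follistatin. Interferons act on fibroblasts through receptors that switch on guanylate binding proteins, immunity-related GTPases and the antigen presentation genes.

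In total 98174850 UMIs were counted in the control IgG library, against 74117462 with the antibody. Summed over members, 735026 and 765977 UMIs were available. Control members had a median of 10754 UMIs and 3478 genes, antibody members of 7693 UMIs and 2855 genes. Mitochondrial UMIs made up a median of 2.32% and 1.92%. No barcode was shared between members of the 2 libraries, and 19 barcodes were shared among all kept cells.

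Members made up 0.696% (Clopper-Pearson interval 0.532% to 0.893%) of kept cells with control IgG and 1.24% (0.981% to 1.54%) with the antibody. The log2 ratio of antibody over control was 0.83 (0.33 to 1.34). Among fibroblasts as a whole no difference in their share was detectable at this depth. Of 165 control fibroblasts 61 were members (37%, 29.6% to 44.8%), and of 207 antibody fibroblasts 79 were (38.2%, 31.5% to 45.2%), for a log2 ratio of 0.05 (-0.45 to 0.55). The other fibroblasts, which met the same limits but held at most 1 UMI of Pi16 and Car3, were 57 (34.5%) and 101 (48.8%). Fibroblasts with at least 3 UMIs of Acta2 and Tagln, the genes of smooth muscle actin and transgelin, were 47 (28.5%, 21.7% to 36%) and 27 (13%, 8.77% to 18.4%), a log2 ratio of -1.13 (-1.87 to -0.41). Of all kept cells they were 0.536% and 0.423%, a log2 ratio of -0.34 (-1.08 to 0.37) whose interval includes 0. The members' larger share of all kept cells thus came with a larger share of the other fibroblasts, and with a smaller share of macrophages (14.2% and 5.01% of kept cells).

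Pi16, but hardly Car3, described these cells. Pi16 (ENSMUSG00000024011, chr17:29317680-29330593, plus strand, GRCm38) was at 1599 CPM (UMIs of a gene in each 1000000 UMIs summed over the members of a library; Poisson interval 1508 to 1693) with control IgG and 1298 CPM (1218 to 1381) with the antibody. A Pi16 UMI was present in 58 of 61 and 77 of 79 members, at a median of 10 and 6 UMIs per cell. T cells, which should lack Pi16, had a Pi16 UMI in 0.686% and 0.691% of cells at median depths of 5124 and 4445 UMIs.

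Car3 (carbonic anhydrase 3, ENSMUSG00000027559, chr3:14863512-14872523, plus strand), an enzyme abundant in adipocytes and skeletal muscle, was at 1185 CPM (1108 to 1266) with control IgG and 512 CPM (462 to 565) with the antibody. These levels rested on very few cells. A Car3 UMI was found in 4 control and 3 antibody members, and only 3 and 2 of these held at least 2 Car3 UMIs, all without Pi16. Those 5 cells held 99.9% and 99.7% of the members' Car3 UMIs. The control cell richest in Car3 carried 620 UMIs of it beside 67 of Adipoq (adiponectin), 420 of Fabp4 (a fatty acid carrier) and 74 of Retn (resistin). The antibody cell richest in Car3 carried 389 Car3, 32 Adipoq and 510 Fabp4 UMIs. All members' UMIs of Adipoq, Plin1, Cidec and Retn lay in the same 5 cells, while Cfd, another adipocyte gene, was at 0 UMIs in both libraries. No UMI of the muscle stem cell genes Pax7, Myf5 and Myod1 was found in any member, and the 7 skeletal muscle genes summed to 36.7 and 20.9 CPM. Adipoq itself was at 0 in 1 of the 3 control cells (30 Car3 UMIs) and in 1 of the 2 antibody cells (2 Car3 UMIs). The data thus go against Car3 as a marker of the whole set.

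The other 3 marker genes were measured in many members. Postn (periostin, a matrix protein of wounds) was at 1575 and 1872 CPM and was detected in 82% and 67.1% of members. Efemp1 (fibulin 3, an elastic fibre protein) was at 669 and 518 CPM, in 83.6% and 67.1%. Ptx3 (pentraxin 3, a secreted pattern recognition protein made in inflammation) was at 401 CPM (357 to 450) with control IgG and 66.6 CPM (49.6 to 87.5) with the antibody, in 42.6% and 17.7% of members and 0.177% and 0.0256% of T cells.

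**Figure D1:**
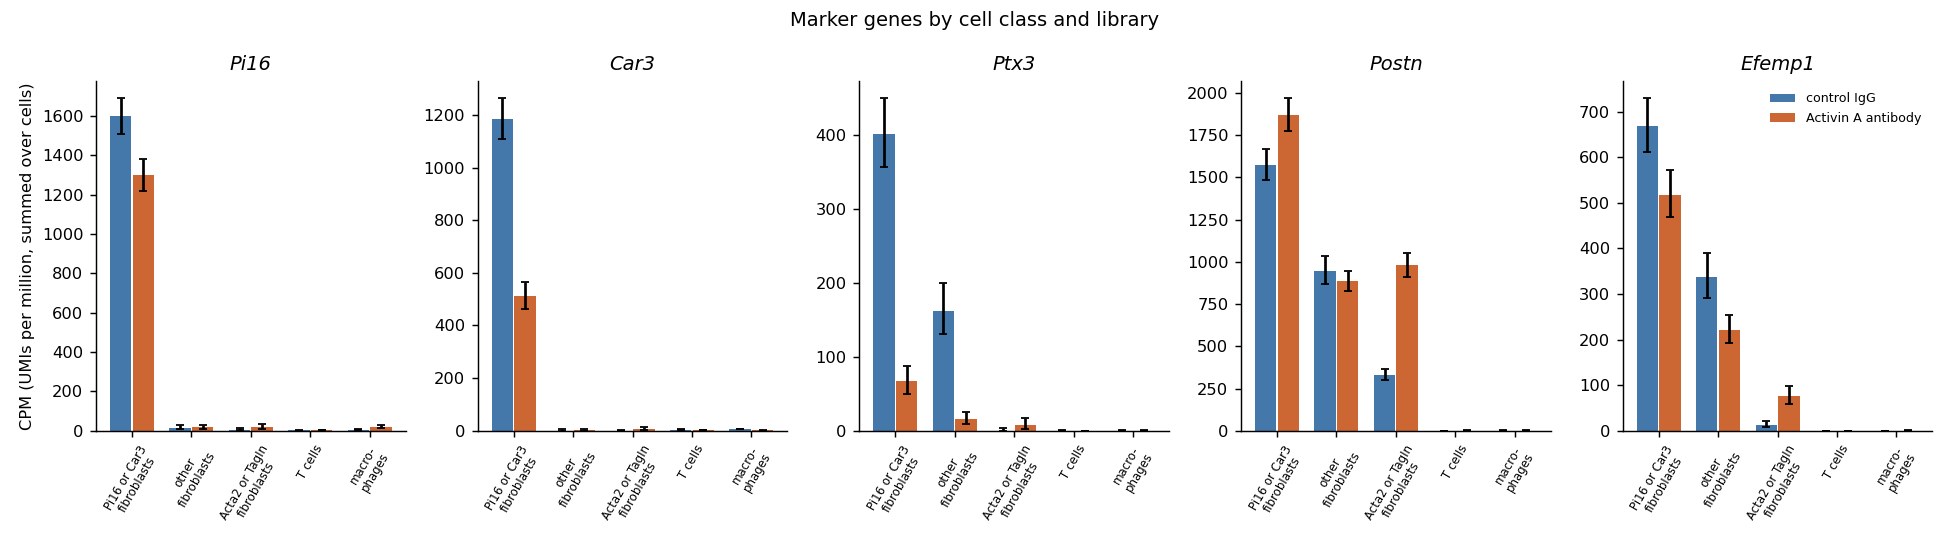
Level of the 5 marker genes (CPM, linear axis) in Pi16 or Car3 fibroblasts, other fibroblasts, fibroblasts with Acta2 or Tagln, T cells and macrophages of the control IgG (blue) and Activin A antibody (orange) libraries. Bars are levels from summed UMIs and lines are Poisson 95% intervals; Pi16 and Car3, which chose the members, stand near 0 in the other classes, while Postn and Efemp1 were also present in other fibroblasts.

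At the limit, 4 control members held exactly 2 UMIs of Pi16 and Car3 (median depth 11797 UMIs) and 9 other fibroblasts held 1 (7791 UMIs), and with the antibody 14 (6332 UMIs) and 18 (5624 UMIs). Dpp4, which encodes a cell surface peptidase, was at 0 and 210 CPM in these 4 and 9 control cells and at 205 and 21.9 CPM in the 14 and 18 antibody cells. In the 46 control and 47 antibody members with at least 5 UMIs, Dpp4 was at 340 and 264 CPM.

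Several genes known from Pi16 fibroblasts were higher in members than in other fibroblasts. Over both libraries, Dpp4 was at 245 CPM in members and 40.5 CPM in other fibroblasts, a log2 ratio of 2.60 (2.21 to 3.01). Anxa3 (annexin A3) was at 441 and 88.3 CPM, Cd55 (a brake on complement) at 390 and 83 CPM, and Sema3c (a secreted semaphorin) at 503 and 100 CPM. Igfbp5, which binds insulin-like growth factors, was at 894 and 181 CPM. Smpd3, a sphingomyelin hydrolase, was at 167 and 10.5 CPM. Among the genes of lower level, Akr1c18 (a steroid dehydrogenase) was at 114 and 1.31 CPM and Efhd1 (a mitochondrial calcium-binding protein) at 75.9 and 1.31 CPM. Each of these genes was higher in members than in other fibroblasts in both libraries. Because the members were chosen on Pi16 in the same cells, and these genes for their ratio, these ratios are a description and were not tested.

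Against the fibroblasts with Acta2 or Tagln the distance was larger. Clec3b (tetranectin) was at 1722 CPM in members and 40.9 CPM in those cells, Opcml (a cell adhesion protein) at 651 and 13 CPM, Lbp (which carries bacterial lipopolysaccharide) at 525 and 11.5 CPM, Scara5 (a ferritin receptor) at 298 and 3.99 CPM, and Dpep1 (a dipeptidase) at 264 and 6.98 CPM. Prg4 (lubricin) was at 162 and 1.5 CPM. Ptx3 was at 231 and 2.99 CPM, although 401 and 66.6 CPM of control and antibody members stand behind this mean level.

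Universal fibroblast genes stood at a similar level in the 2 libraries. Of 22 such genes tested, 1 was at least 2-fold lower with the antibody and none was at least 2-fold higher. Of all genes tested, 2.8% were lower and 2.47% higher by that limit. The median log2 ratio of the list was -0.05 (0.03 over all genes tested). Cd34, which encodes a surface sialomucin, was at 800 and 727 CPM, Dpt (dermatopontin) at 1592 and 1727 CPM, Pdgfra (a platelet-derived growth factor receptor) at 354 and 460 CPM, and Dpp4 at 267 and 225 CPM. The surface proteins Ly6a and Ly6c1 were lower, at 3675 and 2457 CPM and at 1189 and 760 CPM. The gene past the 2-fold limit was Smpd3, at 242 and 95.3 CPM.

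The comparison of the 2 libraries asks which genes of these fibroblasts differed when Activin A was neutralized. Of 6667 genes with at least 30 UMIs over both libraries, 187 (2.8%) were at least 2-fold lower with the antibody and 165 (2.47%) at least 2-fold higher, together 5.28%. For 180 of the lower and 148 of the higher genes the counting interval of the log2 ratio did not include 0. The same count gave 249 higher and 175 lower genes of 6849 in other fibroblasts, and 238 higher and 221 lower of 7292 in fibroblasts with Acta2 or Tagln.

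Interferon-stimulated genes, antigen presentation genes and chemokines were the lists of lowest median in members of the antibody library. All 25 interferon-stimulated genes tested had a ratio below 0, and 11 of them were at least 2-fold lower, against 2.8% of all genes tested. All 20 antigen presentation genes tested also had a ratio below 0, and 13 were at least 2-fold lower. The median log2 ratios were -0.91 and -1.12. The lists were chosen with earlier results of these data known.

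**Figure D2:**
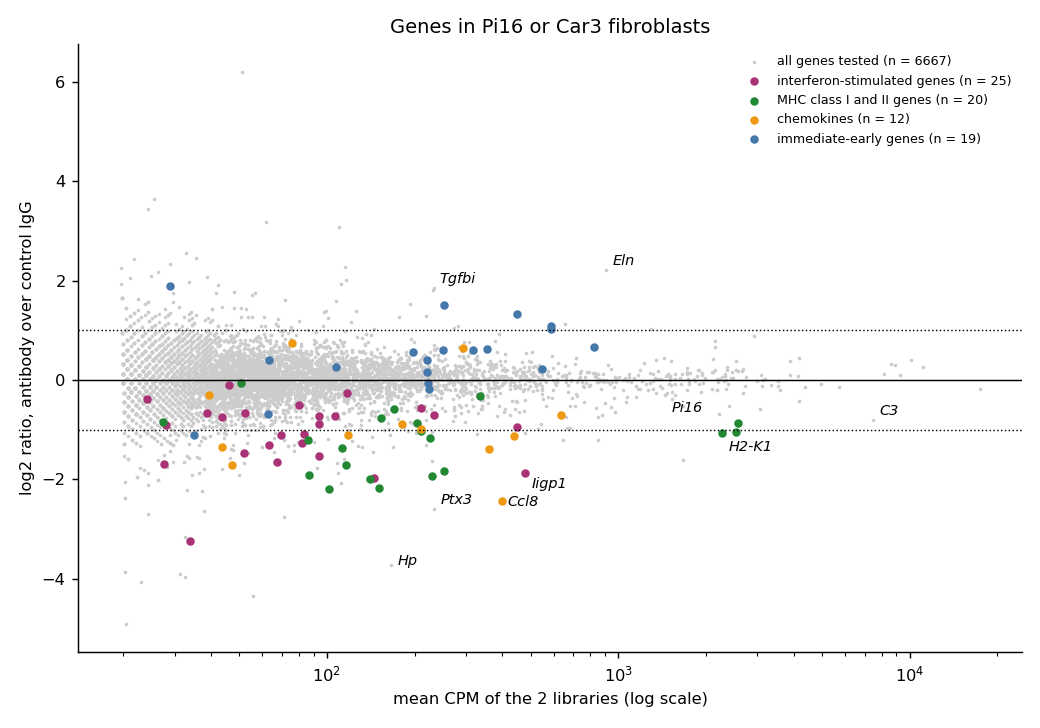
Log2 ratio of antibody over control IgG (vertical axis) against the mean CPM of both libraries (logarithmic axis) for the 6667 genes tested in Pi16 or Car3 fibroblasts. Dotted lines mark a 2-fold difference; interferon-stimulated (25), MHC (20) and chemokine (12) genes lie mostly below 0 and immediate-early genes (19) mostly above.

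Iigp1, an interferon-inducible GTPase that attacks the vacuoles of parasites, had the most UMIs of the interferon list. It was at 754 CPM with control IgG and 206 CPM with the antibody, a log2 ratio of -1.87 (-2.13 to -1.61). The share of members with an Iigp1 UMI was 78.7% (66.3% to 88.1%) and 43% (31.9% to 54.7%), intervals that do not overlap. At an equal depth of 2000 UMIs per cell, which all members reached, the expected shares were 55.2% and 20.2%, so the order was the same at equal depth. T cells had an Iigp1 UMI in 6.73% and 5.68% of cells.

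The guanylate binding proteins, large GTPases induced by interferon gamma, followed the same direction. Gbp2 was at 231 and 58.7 CPM, a log2 ratio of -1.98 (-2.48 to -1.50), and was detected in 72.1% and 24.1% of members and in 25.1% and 24.5% of T cells. Gbp4 was at 61.2 and 6.53 CPM (-3.23, -4.92 to -1.90), and Gbp8 at 58.5 and 6.53 CPM (-3.16, -4.86 to -1.83). Gbp3, Gbp5 and Gbp7 had log2 ratios of -1.47, -1.69 and -1.64. Of the immunity-related GTPases, Ifi47 was at 124 and 18.3 CPM (-2.76, -3.69 to -1.94), Igtp at 116 and 48.3 CPM (-1.26, -1.86 to -0.69), and Irgm1 at 95.2 and 44.4 CPM (-1.10, -1.74 to -0.49).

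Among the antiviral genes, Isg15, a ubiquitin-like protein, was at 139 and 48.3 CPM (-1.52, -2.11 to -0.97). Ifit1 and Ifit3, which bind viral RNA, had log2 ratios of -0.74 (-1.52 to 0.02) and -0.67 (-1.49 to 0.13), whose intervals include 0. Bst2 (tetherin) was at 590 and 308 CPM, just short of 2-fold. The transcription factors Irf1 and Irf9 did not pass 2-fold. Irf1 was at 128 and 107 CPM (-0.26, -0.70 to 0.19) and Irf9 at 47.6 and 44.4 CPM (-0.10, -0.83 to 0.62).

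The promoters of 5 lower genes are shown because their sequences hold the letters of the interferon-stimulated response element, a DNA site through which interferons act. Each is the 250 bases before the start of the gene in RefSeq (GRCm38.p6), 5′ to 3′ on the gene's strand, with capitals marking 2 GAAA blocks that are 2 bases apart, on either strand. Gbp2 lies at chr3:142620413-142620662 (plus strand), Igtp at chr11:58199306-58199555 (plus), Irgm1 at chr11:48871421-48871670 (minus), Isg15 at chr4:156200819-156201068 (minus) and the chemokine gene Cxcl10 at chr5:92348890-92349139 (minus).
Gbp2: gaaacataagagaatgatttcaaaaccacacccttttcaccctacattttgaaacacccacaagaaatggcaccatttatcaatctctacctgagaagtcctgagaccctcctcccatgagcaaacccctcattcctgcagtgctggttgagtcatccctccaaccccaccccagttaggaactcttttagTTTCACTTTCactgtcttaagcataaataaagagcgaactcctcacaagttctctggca
Igtp: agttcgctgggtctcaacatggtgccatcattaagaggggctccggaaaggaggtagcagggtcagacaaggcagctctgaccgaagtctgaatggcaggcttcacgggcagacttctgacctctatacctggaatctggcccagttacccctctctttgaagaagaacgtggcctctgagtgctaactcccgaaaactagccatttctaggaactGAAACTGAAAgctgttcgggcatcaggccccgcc
Irgm1: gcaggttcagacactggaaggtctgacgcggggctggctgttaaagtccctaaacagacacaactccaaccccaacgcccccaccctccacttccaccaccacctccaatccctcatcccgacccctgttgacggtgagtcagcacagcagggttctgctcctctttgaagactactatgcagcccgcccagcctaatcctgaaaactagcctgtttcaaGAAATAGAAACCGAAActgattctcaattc
Isg15: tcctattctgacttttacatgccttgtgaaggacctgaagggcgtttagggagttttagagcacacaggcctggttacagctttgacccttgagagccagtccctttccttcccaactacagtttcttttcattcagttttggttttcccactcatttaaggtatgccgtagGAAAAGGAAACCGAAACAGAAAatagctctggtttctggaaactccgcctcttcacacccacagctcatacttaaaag
Cxcl10: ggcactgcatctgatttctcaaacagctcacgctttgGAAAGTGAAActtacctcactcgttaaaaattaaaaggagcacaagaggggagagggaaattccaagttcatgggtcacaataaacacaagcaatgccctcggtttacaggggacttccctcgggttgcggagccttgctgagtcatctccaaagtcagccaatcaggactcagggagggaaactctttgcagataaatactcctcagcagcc

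In Igtp the match begins 34 bases before the start, in Gbp2, where it lies on the other strand, 59 bases, and in Cxcl10 213 bases. Irgm1 holds 2 overlapping matches and Isg15 3. This arrangement of GAAA blocks occurred in 821 of 27025 promoters of this length (3.04%, the first listed start of each gene, both strands). It occurred in 13 of the 21 interferon-stimulated genes matched by symbol (61.9%), in 8 of the 9 that were at least 2-fold lower and in 5 of the other 12. TTCNNNGAA, the letters of the gamma-activated site, through which interferon gamma acts, occurred in 1940 promoters (7.18%), in 7 of the 21 genes and in 4 of the 9. Of the 16 antigen presentation genes matched, 3 held the GAAA blocks, 1 of the 11 that were at least 2-fold lower and 2 of the other 5, and 1 held TTCNNNGAA. A match describes the letters in this window and not the use of a site.

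Antigen presentation genes differed in how many passed 2-fold. Among 8 class I genes with B2m, 6 were at least 2-fold lower, against 2.8% of all genes, with a median log2 ratio of -1.06. The heavy chains H2-K1 and H2-D1 were at 3075 and 1465 CPM (-1.07, -1.17 to -0.97) and at 3405 and 1659 CPM (-1.04, -1.14 to -0.94), and the light chain B2m at 3326 and 1833 CPM (-0.86, -0.96 to -0.76). These levels did not rest on few cells. The median member held 28.5 H2-K1 UMIs per 10000 with control IgG and 10.2 with the antibody, and the upper quartile with the antibody (21.1) was below the control median. The nonclassical genes H2-Q6 and H2-Q7 had log2 ratios of -2.00 and -1.93, though both are close copies of other class I genes, between which the counting could split reads.

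Of 8 genes of peptide processing, counted with the regulator Nlrc5, 3 were at least 2-fold lower, against 2.8% of all genes. Their median was -0.85, with a range up to -0.06 among the 8. Tap1, a subunit of the peptide transporter, was at 167 and 36.6 CPM (-2.19, -2.84 to -1.59), and was detected in 70.5% and 25.3% of members. T cells, which use the same transporter, had a Tap1 UMI in 58.8% and 60.4% of cells. The immunoproteasome subunit Psmb9 was at 162 and 62.7 CPM (-1.37, -1.88 to -0.87) and Psmb8 at 312 and 138 CPM (-1.17, -1.52 to -0.83). Tap2, the partner of Tap1, was at 51.7 and 49.6 CPM (-0.06, -0.75 to 0.63).

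The 4 class II genes were all at least 2-fold lower, against 2.8% of all genes. H2-Ab1 (ENSMUSG00000073421, chr17:34257689-34269419, plus strand) was at 248 and 54.8 CPM (-2.17, -2.70 to -1.68), in 57.4% (44.1% to 70%) and 12.7% (6.24% to 22%) of members, and Cd74, the chain that guides class II, at 395 and 111 CPM (-1.83, -2.20 to -1.48). In the antibody library 26 of the 42 H2-Ab1 UMIs and 66 of the 85 Cd74 UMIs lay in 1 member, and without it the levels were 21.4 and 25.4 CPM. T cells had an H2-Ab1 UMI in 21.6% and 7.93% of cells, so the share of antibody members was within counting error of that background. Macrophages hold far more class II RNA (H2-Ab1 at 5270 and 4151 CPM), and free RNA, measured in barcodes with under 100 UMIs, held it at 901 and 532 CPM. The 6 macrophage markers summed to 54.4 and 17 CPM in members, led by Lyz2 (21.8 and 7.83 CPM), and none of the 6 was at 0 over both libraries. The number of H2-Ab1 UMIs per Lyz2 UMI was 11.4 and 7 in members, 0.955 and 1.02 in macrophages, and 0.993 and 0.734 in free RNA. The values of members rest on only 16 and 6 Lyz2 UMIs. That of antibody members also includes the 1 member with 26 of the 42 H2-Ab1 UMIs. With 5% free RNA subtracted in each library the median log2 ratio of all antigen presentation genes was -1.19.

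Other cells of the same libraries were set beside the members. In other fibroblasts 8 of 23 interferon-stimulated genes tested were at least 2-fold lower (median -0.78) and 9 of 20 antigen presentation genes (median -0.88). In fibroblasts with Acta2 or Tagln 1 of 23 and 4 of 20 were (medians -0.10 and -0.52). In T cells 0 of 26 and 0 of 21 were, with medians of 0.34 and 0.02. Over all genes tested, 2.56% were at least 2-fold lower in other fibroblasts, 3.03% in fibroblasts with Acta2 or Tagln and 1.69% in T cells, so counts of 0 in T cells are near that background. Ifi47, for example, was at 84.5 and 86.7 CPM in T cells, and Iigp1 at 305 and 330 CPM in fibroblasts with Acta2 or Tagln. The difference between classes was not tested.

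**Figure D3:**
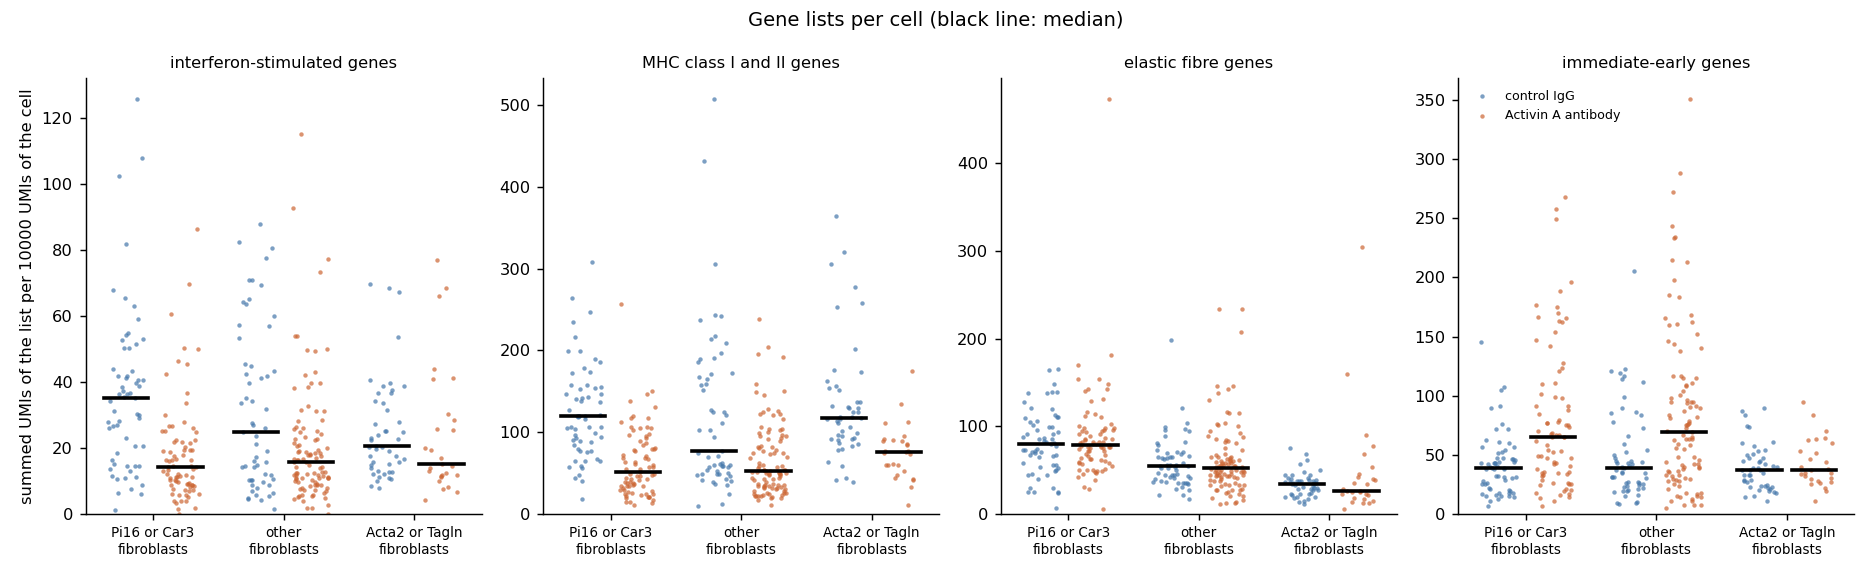
Summed UMIs of 4 gene lists per 10000 UMIs of each cell, in Pi16 or Car3 fibroblasts, other fibroblasts and fibroblasts with Acta2 or Tagln of the control IgG (blue) and antibody (orange) libraries. Points are cells and black lines medians; for interferon-stimulated genes the medians in Pi16 or Car3 fibroblasts were 35.2 and 14.1, and for MHC genes 119 and 51.4.

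The upper quartile of antibody members lay below the control median for both lists. The median member held 35.2 UMIs of interferon-stimulated genes per 10000 with control IgG (quartiles 16.2 and 43.9, range 1.24 to 126) and 14.1 with the antibody (8.75 and 22, range 0 to 86.4). For antigen presentation genes the medians were 119 (84.3 and 154) and 51.4 (32.8 and 85.6). The ranges of single cells overlapped for both lists.

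Chemokines were mostly lower, with Ccl2 and Cxcl1 as exceptions. Of 12 tested, 6 were at least 2-fold lower, against 2.8% of all genes, and none was at least 2-fold higher, with a median log2 ratio of -1.04. Ccl8 (ENSMUSG00000009185, chr11:82115185-82116799, plus strand), which draws monocytes and T cells, was at 671 and 124 CPM (-2.44, -2.77 to -2.12), in 59% and 30.4% of members and 1.73% and 0.512% of T cells. Cxcl9, a ligand of CXCR3 on activated T cells, was at 521 and 200 CPM (-1.38, -1.66 to -1.11), and 122 of the 153 antibody UMIs lay in 1 member, without which it was at 41.5 CPM. Cxcl10, of the same receptor, was at 161 and 74.4 CPM (-1.11, -1.59 to -0.64). Cxcl12, which retains leukocytes through CXCR4, was at 600 and 274 CPM (-1.13, -1.37 to -0.89). Ccl11 (eotaxin) had the most UMIs and was at 789 and 487 CPM (-0.70, -0.89 to -0.51). Ccl2 and Cxcl1, early products of NF-κB signaling, lay above 0, at 229 and 358 CPM (0.65, 0.36 to 0.93) and at 57.1 and 95.3 CPM (0.74, 0.17 to 1.32). For Ccl2, 122 of the 274 antibody UMIs came from 1 member, and without the richest cell of each library it was at 185 and 202 CPM. In other fibroblasts Ccl2 was at 906 and 335 CPM, the opposite direction. Among those cells 10 of 13 chemokines were at least 2-fold lower, against 2.56% of all genes there, Cxcl9 among them at 1361 and 82 CPM.

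Acute-phase genes showed the same direction in part. Of 12 tested 4 were at least 2-fold lower, against 2.8% of all genes, with a median of -0.86. In other fibroblasts none of 11 was at least 2-fold lower and 2 were higher, with a median of -0.38. Over all genes there 2.56% were lower and 3.64% higher, so the count of 0 is near that background. Saa3 (serum amyloid A3, induced by interleukin 1 and lipopolysaccharide) was at 2516 and 829 CPM (-1.60, -1.73 to -1.47), in 49.2% (36.1% to 62.3%) and 11.4% (5.34% to 20.5%) of members. T cells had a Saa3 UMI in 17.9% and 7.4% of cells, and free RNA held it at 1597 and 1062 CPM, so the share of antibody members was within counting error of background. One member held 565 of the 1849 control UMIs and another 456 of the 635 antibody UMIs, and without them the levels were 1808 and 240 CPM. Hp (haptoglobin) was at 309 and 23.5 CPM (-3.72, -4.50 to -3.02), but 145 of its 227 control UMIs lay in the 3 cells rich in Car3, and among members chosen on Pi16 alone its log2 ratio was -2.27. Lbp was at 703 and 354 CPM, just short of 2-fold, and was detected in 80.3% and 57% of members. Tlr4, the receptor of lipopolysaccharide, was at 83 and 86.2 CPM, and Nfkbia, the inhibitor of NF-κB, at 185 and 213 CPM.

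Among the antibody members 1 cell of 19364 UMIs, with 14 Pi16 UMIs, held the most UMIs of Saa3, Cxcl9, Cd74, H2-Ab1 and Lcn2 alike, between 61.9% and 79.7% of the library's members' UMIs for each. Levels of these 5 genes in the antibody library are thus those of 1 cell and a low remainder.

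Complement was the most abundant innate product. C3 (ENSMUSG00000024164, chr17:57203970-57228136, minus strand), the central component, was at 9522 and 5423 CPM (-0.81, -0.87 to -0.76). With mitochondrial and ribosomal protein genes left out, C3 was among the 10 genes with most UMIs. The median member held 78.1 C3 UMIs per 10000 with control IgG and 47.1 with the antibody. Cfb (factor B) was at 903 and 392 CPM (-1.21, -1.41 to -1.01) and was the only 1 of 12 complement genes past 2-fold. Of all genes tested, 2.8% were at least 2-fold lower and 2.47% higher. C4b was at 826 and 496 CPM and C1ra at 555 and 355 CPM, while the inhibitors Serping1 (3228 and 2978 CPM) and Cd55 (410 and 371 CPM) had log2 ratios of -0.12 and -0.14.

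Of 13 cytokine and receptor genes tested, 1 was at least 2-fold lower, against 2.8% of all genes, with a median of -0.40. That gene was Il1r1, the interleukin 1 receptor, at 254 and 125 CPM (-1.02, -1.39 to -0.66). The alarmin Il33 was at 253 and 140 CPM, and Il6, at 39.5 and 52.2 CPM (0.40, -0.32 to 1.15), had an interval that includes 0. Cd274, which encodes the checkpoint ligand PD-L1, had 14 and 7 UMIs in members (19 and 9.14 CPM, log2 ratio -1.06, -2.61 to 0.35), so no difference was detectable at this depth.

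**Figure D4:**
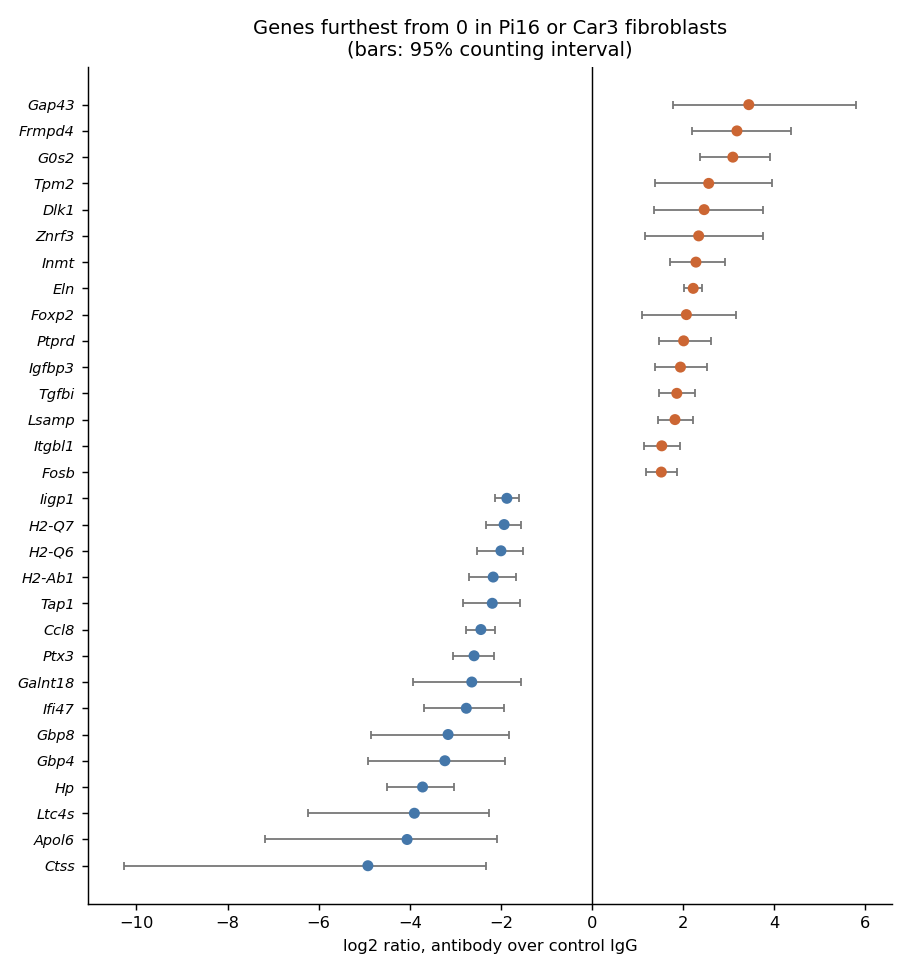
Log2 ratio of antibody over control IgG for the 15 genes furthest above 0 and the 15 furthest below 0 in Pi16 or Car3 fibroblasts, ranked by the interval end nearest 0. Bars are 95% counting intervals; the lower genes include Ptx3, Ccl8, Ifi47, Gbp4 and Iigp1, and the higher genes Eln, Tgfbi and Igfbp3.

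Ptx3 (ENSMUSG00000027832, chr3:66219910-66225805, plus strand) had a log2 ratio of -2.59 (-3.05 to -2.16). The highest control member held 77 of 295 UMIs and the highest antibody member 8 of 51. It was lower in other fibroblasts too, at 162 and 15.4 CPM, and was at 0 and 7.68 CPM in fibroblasts with Acta2 or Tagln. Other genes among the 15 lowest had few UMIs. Ctss, which encodes the lysosomal protease cathepsin S, had 29 and 1, Apol6 (an apolipoprotein L) 32 and 2, Ltc4s (leukotriene C4 synthase) 43 and 3, and Galnt18 (a glycosyltransferase) 48 and 8. Ctss is also a macrophage gene, and 15 of its 29 control UMIs lay in 1 member.

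Summed over members, collagen genes stood at a similar level in both libraries. Among 18 collagen genes tested none was 2-fold higher or lower, with a median log2 ratio of 0.10 and a range from -0.60 (Col4a2, of the basement membrane) to 0.47 (Col4a5). Col1a1 was at 8695 and 11451 CPM (0.40, 0.35 to 0.44), Col1a2 at 10087 and 12178 CPM and Col3a1 at 18376 and 16333 CPM (-0.17, -0.21 to -0.13). The median member differed more for Col3a1, with 139 and 75.9 UMIs per 10000. For Col1a1 it held 55.9 and 60.9, and for the whole list 353 and 280. Single members differed far more than the libraries did. Col1a1 ran from 1.91 to 259 UMIs per 10000 among control members and from 1.54 to 300 among antibody members. Of 18 collagen processing enzymes 1 was at least 2-fold lower, P4ha3 (a prolyl hydroxylase, 28 and 13 UMIs). Of 10 small proteoglycans and 12 metalloproteinases and inhibitors none passed 2-fold. The counts of these lists stand against 2.47% of all genes higher and 2.8% lower.

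Elastic fibre genes had 2 of 16 members at least 2-fold higher, against 2.47% of all genes, and none lower, with a median of 0.25. Eln (tropoelastin, ENSMUSG00000029675, chr5:134702593-134747323, minus strand) was at 322 and 1497 CPM (2.22, 2.01 to 2.42). One antibody member, with 17800 UMIs and 24 Pi16 UMIs, held 623 of the 1147 Eln UMIs. Without the richest cell of each library Eln was at 238 and 700 CPM. The log2 ratio was 1.54 when only the Eln UMIs of that cell were left out and the library totals kept. The share of members with an Eln UMI was 60.7% (47.3% to 72.9%) and 65.8% (54.3% to 76.1%), and the median member held 0.764 and 1.69 Eln UMIs per 10000. T cells had an Eln UMI in 0.157% and 0.435% of cells. At an equal depth of 2000 UMIs per cell the expected shares of members were 26% and 40.1%, so the similar shares above hold only at unequal depth. Eln was at 249 and 822 CPM in other fibroblasts and at 53.1 and 580 CPM in fibroblasts with Acta2 or Tagln, the same direction. Fbn2 (fibrillin 2) was at 43.5 and 92.7 CPM (1.09, 0.47 to 1.74) and Ltbp4 (which places latent TGFβ on elastic fibres) at 269 and 509 CPM (0.92, 0.67 to 1.17), while Fbn1 was at 2077 and 1766 CPM.

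Several of the higher genes were less abundant in control members than in other control fibroblasts. Tgfbi (ENSMUSG00000035493, chr13:56609523-56639562, plus strand), a matrix adhesion protein induced by TGFβ, was at 101 CPM in control members and 364 CPM in antibody members (1.86, 1.48 to 2.25), and at 592 and 769 CPM in other fibroblasts. Members with a Tgfbi UMI were 32.8% (21.3% to 46%) and 62% (50.4% to 72.7%), beside 7.22% and 4.22% of T cells. Igfbp3, which binds insulin-like growth factors, was at 46.3 and 178 CPM in members and at 457 and 446 CPM in other fibroblasts. Lsamp (a cell adhesion protein) was at 102 and 360 CPM in members and 417 and 643 CPM in other fibroblasts, Ptprd (a receptor phosphatase) at 46.3 and 187 CPM and 186 and 206 CPM. Inmt (a methyltransferase) was at 39.5 and 192 CPM in members and 143 and 149 CPM in other fibroblasts. For Inmt and Ptprd the antibody members stood at or near the level of other fibroblasts. Members with at least 5 UMIs of Pi16 and Car3 were 46 of the 61 control members and 47 of the 79 antibody members. Among members with at least 4 UMIs the log2 ratios were 1.81 for Tgfbi, 3.52 for Igfbp3, 2.55 for Lsamp, 1.84 for Ptprd and 2.11 for Inmt. Over all alternatives tried, Car3 alone left out, they ran from 1.46 to 2.48, 1.24 to 3.52, 1.74 to 2.84, 1.76 to 2.39 and 1.65 to 2.70. The value of 3.52 for Igfbp3 was thus its highest, and 1 antibody member held 47 of its 136 UMIs.

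Most other genes among the 15 highest rested on few cells or UMIs. G0s2, an inhibitor of fat breakdown, had 17 and 151 UMIs, of which 125 lay in the antibody cell richest in Car3. The same cell held 201 of the 237 Fabp5 UMIs. Tpm2 (a tropomyosin) had 7 and 43 UMIs, 21 of them in 1 cell, and Gap43 had 3 and 34 UMIs. Frmpd4 had 9 and 85 UMIs in 4.92% and 21.5% of members. Dlk1 (8 and 46 UMIs) was limited by the rule and was higher in free RNA, at 184 and 401 CPM. Znrf3 was at 9.52 and 48.3 CPM and Foxp2 at 15 and 62.7 CPM. Itgbl1 was an exception, at 99.3 and 286 CPM in 31.1% and 57% of members. Its log2 ratio was 1.53, or 1.45 without the Itgbl1 UMIs of the richest cell of each library.

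**Figure D5:**
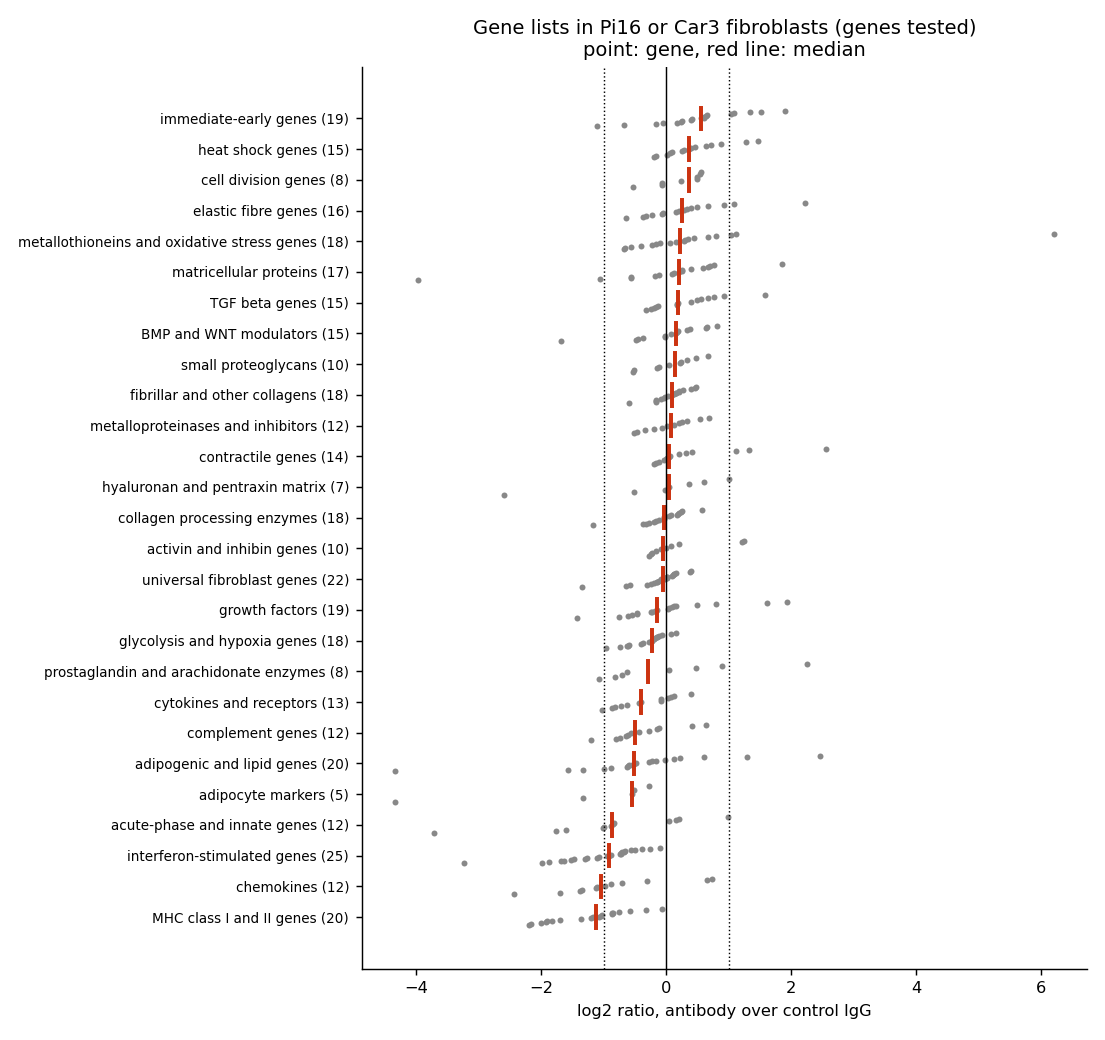
Log2 ratio of antibody over control IgG of each gene tested (points) in 27 gene lists with at least 5 genes tested, in Pi16 or Car3 fibroblasts, ordered by their medians (red lines). Medians run from -1.12 for MHC genes to 0.56 for immediate-early genes; the number of genes tested stands beside each list.

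Immediate-early genes, which respond within minutes to growth factors, stress and tissue dissociation, had the highest list median. Of 19 tested 4 had a ratio below 0 and 5 were at least 2-fold higher, against 2.47% of all genes, and 1 was 2-fold lower, with a median of 0.56. Fos and Jun were at 386 and 791 CPM (1.03, 0.83 to 1.24) and at 377 and 798 CPM (1.08, 0.87 to 1.29). Egr1 was at 254 and 646 CPM (1.34, 1.10 to 1.60), Fosb at 131 and 373 CPM (1.52, 1.18 to 1.86), and Nr4a1 at 12.2 and 45.7 CPM (1.90, 0.81 to 3.14). The gene that was lower was Myc, at 47.6 and 22.2 CPM. The median member held 1.56 Egr1 UMIs per 10000 with control IgG and 4.55 with the antibody. In other fibroblasts 5 of 21 immediate-early genes were at least 2-fold higher, against 3.64% of all genes there, with a median of 0.59. Egr1 was at 328 and 781 CPM in those cells. The median fibroblast with Acta2 or Tagln held 37.2 and 36.8 UMIs of the list per 10000. The list median of log2 ratios in those cells was 0.21. Among T cells, a Fos UMI was present in 42.6% and 34.5%, a Jun UMI in 41.7% and 32.1% and an Egr1 UMI in 31.1% and 36.1%. These shares stand at unequal median depths of 5124 and 4445 UMIs. The median log2 ratio of the 23 list genes tested in T cells was 0.30. None of them was at least 2-fold higher, against 1.35% of all genes there. Heat shock genes had 2 of 15 at least 2-fold higher, against 2.47% of all genes, with a median of 0.36. These were Hspa1b (103 and 251 CPM) and Hsph1 (23.1 and 64 CPM). In other fibroblasts 3 of 15 were at least 2-fold higher, against 3.64% of all genes there, with a median of 0.56. The part of tissue handling in these values was not tested.

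Most activin pathway genes did not pass 2-fold. Inhba had 1 and 3 UMIs in all members, so these cells were at or under 3 UMIs of the ligand gene in both libraries. Fst (follistatin, which captures activin) was at 129 and 108 CPM (-0.25, -0.70 to 0.19) and Fstl1 at 3008 and 2978 CPM. The receptor genes Acvr2a and Acvr1 were at 47.6 and 40.5 CPM and at 53.1 and 56.1 CPM, and Smad2, Smad3 and Smad4 had log2 ratios of -0.16, -0.09 and -0.27, all with intervals that include 0. Of 10 genes tested 2 were at least 2-fold higher, against 2.47% of all genes, and none lower. The higher genes were the feedback inhibitors Smad7 at 23.1 and 54.8 CPM (1.25, 0.40 to 2.15) and Skil at 23.1 and 53.5 CPM (1.21, 0.36 to 2.12), with 17 UMIs each in the control library.

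The counts of the TGFβ, matricellular, growth factor and BMP or WNT lists stand against 2.47% of all genes higher and 2.8% lower. Of 15 TGFβ genes tested 1 was at least 2-fold higher. It was the ligand Tgfb3, at 12.2 and 36.6 CPM (1.58, 0.45 to 2.85), while Tgfbr2 was at 800 and 638 CPM and Pmepa1, a TGFβ target, at 244 and 342 CPM (0.49, 0.21 to 0.77). Of 17 matricellular genes 1 was 2-fold higher (Tgfbi) and 2 were lower, Spp1 (osteopontin, 59.9 and 28.7 CPM) and Tnc (tenascin C, 45 and 3 UMIs, detected in 6.56% and 3.8% of members). Among 19 growth factor genes 2 were at least 2-fold higher, Igfbp3 and Mdk, and 1 lower, Fgf10. Mdk (midkine) was at 35.4 and 108 CPM (1.62, 0.96 to 2.31), and Fgf10 at 113 and 41.8 CPM, with 68.7% and 78.1% of its UMIs in the cells rich in Car3. Igfbp6, the most abundant of them, was at 1571 and 2714 CPM (0.79, 0.68 to 0.89). Of 15 BMP and WNT modulators 1 was lower, Rspo3, which strengthens WNT signaling, at 42.2 and 13.1 CPM (-1.69, -2.88 to -0.63).

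Stress, lipid and contractile genes made up the rest of the lists. Their counts stand against 2.47% of all genes higher and 2.8% lower. Of 18 metallothionein and oxidative stress genes 3 were at least 2-fold higher. Gstm1, a glutathione transferase, was at 178 and 366 CPM (1.04, 0.73 to 1.35) and Srxn1 had 12 and 27 UMIs, whereas 76 of the 77 antibody UMIs of Gsta4 lay in 1 member. Mt1, a metal-binding metallothionein, was at 2731 and 1705 CPM (-0.68, -0.78 to -0.58). Of 14 contractile genes 3 were at least 2-fold higher, Tpm2, Actn1 (20.4 and 50.9 CPM) and Myl9 (16.3 and 35.2 CPM), at levels far below those of Vim (2329 and 2029 CPM). Of 20 adipogenic and lipid genes 2 were at least 2-fold higher (Fabp5 and Dlk1) and 3 lower (Retn, Adipoq and Pnpla2), with a median of -0.51, which was 0.00 among members chosen on Pi16 alone. Of 8 prostaglandin and arachidonate enzymes Pla1a, a phospholipase, was lower at 445 and 210 CPM (-1.08, -1.36 to -0.81), and Ptgs2 (cyclooxygenase 2) was higher with 5 and 25 UMIs. Of 7 hyaluronan and pentraxin genes Has2, a hyaluronan synthase, was higher with 10 and 21 UMIs (1.01, -0.14 to 2.26), and Ptx3 was lower. None of 18 glycolysis and hypoxia genes and none of 8 cell division genes passed 2-fold. The cell division median was 0.36 but turned to -1.48 among members chosen on Pi16 alone, so its direction is not settled. Entpd1, which encodes the surface enzyme CD39, had 25 and 5 UMIs and was the 1 of 3 checkpoint genes tested that was lower.

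Of the markers of other cell types, the 8 adipocyte markers summed to 2058 and 1317 CPM, led by Fabp4, with 95.7% and 99.7% of Fabp4 UMIs in the 5 cells with at least 2 Car3 UMIs. The other lists were far lower. Highest of them were the 5 cancer markers, at 186 and 217 CPM (137 and 166 UMIs), led by Mid1. The 6 T or NK cell markers summed to 38.1 and 22.2 CPM, led by Nkg7. The mesothelial markers summed to 29.9 and 37.9 CPM, with Msln, Upk3b, Lrrn4 and Krt8 at 0, and the endothelial markers to 27.2 and 35.2 CPM, with Pecam1 and Cdh5 at 0. Pericyte or smooth muscle markers summed to 32.7 and 67.9 CPM, led by Abcc9, and neutrophil markers to 4.08 and 6.53 CPM. No hemoglobin UMI was found. The part of macrophage and other RNA in the lower inflammatory genes was not tested beyond the values above.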

How the data were processed

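Tumor tissue from the abrasion site was dissociated and made into 10x Genomics 3′ libraries, with 1 library per group. Per the labels the authors aligned the reads to mm10 with Cell Ranger 7.0.1, whereas the file header names version 4. The deposited values were raw UMI counts of 32285 genes for all barcodes, not filtered for cells. Here, cells were kept if they had 1000 to 8500 genes, between 1000 and 100000 UMIs, and a mitochondrial share of no more than 10%. No doublet caller was run and doublets were kept. The members and the 41 gene lists were chosen with earlier results of these data known.

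UMIs were summed over members of each library and divided by their total (CPM). Log2 ratios are antibody over control IgG, with 95% conditional binomial intervals. Levels have Poisson and shares Clopper-Pearson intervals. A gene was tested with at least 30 UMIs over both libraries, counted as higher or lower from a 2-fold ratio, and set against 3 UMIs where a library had 0. No p-value was computed, because cells of a single library do not replicate a group. Named genes were the markers and rule genes, the 20 genes with most UMIs, the 15 furthest above and below 0 by the interval end nearest 0 (UMI in at least 10% of members of the higher library), the 20 leading over each other fibroblast class, and genes of the lists. Mitochondrial and ribosomal protein genes were left out of the ranking by most UMIs. A few cells and genes named for UMIs in 1 cell were chosen after their values were seen. Free RNA was read from barcodes under 100 UMIs. Of the gene IDs, 32158 (99.6%) were found in GENCODE M21 (GRCm38). Python 3.11.15, numpy 2.4.6, scipy 1.17.1, pandas 2.3.3 and matplotlib 3.10.9 were used, and the ratio code was tested on simulated data. Other antibody groups were not analysed here.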

Additional observations from a re-analysis of the deposited data

How the results depend on the processing

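No paired analysis was possible because only 1 library stands for a group, and for the same reason no library could be left out. With Car3 alone in the rule (3 and 2 cells), the log2 ratio of the share was -0.13 among kept cells and -0.91 among fibroblasts, 49 genes were at least 2-fold higher and 53 lower of 537 tested, and Efemp1 turned to 0.60. After thinning to 5000 UMIs, 103 were higher and 115 lower of 2914 tested, a larger share than in the report, G0s2 turned to -0.73 and Gap43 to -1.15. With a minimum of 10 UMIs 599 were higher and 584 lower of 9962, with 100 UMIs 35 and 59 of 2581, and with no filter 989 and 1258 of 15313, the last with many genes of few UMIs. The log2 ratio of the share among fibroblasts, 0.05 in the report, was -0.41 (-0.98 to 0.17) with no UMI of other cell types' markers and -0.19 (-0.77 to 0.40) with at least 4 UMIs of Pi16 and Car3. The list medians of interferon-stimulated, antigen presentation, chemokine, acute-phase, complement and immediate-early genes kept their sign in 14 of 14 alternatives that held neither Car3 alone nor thinning. The medians ran from -0.96 to -0.76, -1.19 to -0.97, -1.22 to -0.66, -1.05 to -0.74, -0.53 to -0.34 and 0.37 to 0.80. After thinning they were -0.82, -1.21, -1.32, -1.12, -0.38 and 0.59. With Car3 alone they were -0.25, -0.54, -0.77, -0.47, -0.77 and 0.00, with genes at 0 UMIs set at the floor. Leaving out the cell with most UMIs of a gene in each library, an alternative chosen after seeing the data, moved 8 of 34 named genes and reversed 0. It left out that cell's UMIs of the gene and kept the library totals. The deepest member held 37452 UMIs, so the limit tried for doublets, 1 of the 14 alternatives, removed none and could change no sign. Another of them, centring on the median gene, shifted every ratio by only 0.03. With 61 and 79 members, genes of few UMIs have wide intervals.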
